A study of Brassica oleracea var. italica with 2 samples.

Results

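The miR156 and miR157 records of broccoli shoot apexes are described here in 2 small RNA libraries, 1 from a heat-tolerant genotype (HT) and 1 from a heat-sensitive genotype (HS). A record is 1 line of the table of known miRNAs, with a name, a position on the *Brassica rapa* genome and the number of reads in each library. Every record was taken that is named as a miR156 or a miR157 and holds a read count for both libraries, which gave 22 of the 169 counted records. Of these, 17 were mature miRNAs and 5 were miRNA* (star) records, the opposite strand of the miRNA duplex. The records held 18 distinct sequences, and records with the same sequence were counted as 1 unit wherever reads were summed. The exception is the total of all counted known miRNA records, which adds up every record. Names follow the study, and for all 22 records the study's name was found by position and reads.

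HT is a heat-tolerant line of *B. oleracea* var. *italica* with high curd-forming capacity, and HS is the heat-sensitive line with low curd-forming capacity. The sample descriptions call the lines isogenic. Both were grown at 22 °C with 18 h of light and 6 h of darkness, and shoot apexes were taken from plants 54 days old according to the sample descriptions. Each genotype is represented by 1 line and 1 library, and the number of plants behind a library is not given in the sources used here. Small RNA libraries hold no marker transcripts against which the tissue could be checked.

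miR156 and miR157 are closely related plant miRNAs that cut or repress the transcripts of SPL transcription factors (SQUAMOSA PROMOTER BINDING PROTEIN-LIKE). In *Arabidopsis* their level is high in the juvenile shoot and declines with age, and the released SPL factors promote adult leaf traits and flowering. One of the routes by which SPL factors act is transcription of miR172, which represses AP2-type floral repressors and therefore tends to change in the opposite direction to miR156 with age.

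With 1 library per genotype there is no replicate check. Each test below compares the reads of 2 libraries and not the genotypes, and each interval is an exact 95% interval that covers counting error only. The libraries held 27069903 reads (HT) and 26253036 reads (HS), and the counted known miRNA records accounted for 0.142% and 0.109% of them. Levels are given as reads and as TPM, the reads scaled to 1000000 reads of the library. A record was called different when its two-sided Fisher's exact test against all other reads of the library gave an unadjusted p under 0.001 and its fold change (HT over HS) was over 2 in either direction.

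The sequences of the called records, 1 sequence for each of the other mature forms, and those of miR156g and miR157a* are shown first, because the names of the records hide how few different sequences they stand for. They are written 5′ to 3′ as the study lists them, in DNA letters, with bases 2 to 8 (the seed) in capitals.

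miR156b, miR157a and miR157b: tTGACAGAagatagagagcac
miR156e, miR156l and miR156n: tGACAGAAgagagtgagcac
miR156a: tGACAGAAgagagtgagcaca
miR156d: tTGACAGAagagagagagcac
miR156c: tTGACAGAagaaagagagcac
miR156k: tGACAGAAgagagcgagcac
miR156i: tGACAGAAgagagagagcag
miR156g: aCAGAAGAtagagagcacag
miR157a*: gCTCTCTAgccttctgtcatca

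The record named miR156b thus had the sequence of miR157a and miR157b. The seeds of the mature sequences were the same stretch read from different first bases. The seed GACAGAA was held by 7 of the 13 distinct mature sequences, TGACAGA by 4, TTGACAG by 1 (miR156) and CAGAAGA by 1 (miR156g). Of the 17 mature records, 16 began with T (U in the RNA), the exception being miR156g.

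Aligned on the 18 bases that all mature members share in position, the mature sequences fell into 6 forms. The bases in capitals are those at which the forms differ.

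miR157 form: acagaagaTagAgagcaC
miR156 form: acagaagaGagTgagcaC
miR156d form: acagaagaGagAgagcaC
miR156c form: acagaagaAagAgagcaC
miR156k form: acagaagaGagCgagcaC
miR156i form: acagaagaGagAgagcaG

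Positions are counted from 1 at the 5′ end of this stretch, with the base of the miR156 form first. The miR157 form differed from the miR156 form by G9T and T12A, the miR156d form by T12A, the miR156c form by G9A and T12A, the miR156k form by T12C, and the miR156i form by T12A and C18G. The miR157 form was held by miR156b, miR157a, miR157b and miR156g. The miR156 form was held by miR156a, miR156e, miR156l and miR156n. The miR156d form was held by miR156d, miR156, miR156j, miR156f and miR156m, the miR156c form by miR156c and miR156h, and the other 2 forms by the record that names them.

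The counted members lay on 10 chromosomes of *B. rapa* (Brapa_sequence version 1.1, positions as the table lists them, where end minus start equals the length of the sequence). These are positions in the relative whose genome served as reference, not in broccoli. The miR157 form was listed on chromosome A01 from 22199645 to 22199666 (miR156b, plus strand), on A02 from 9905887 to 9905908 (miR157a, plus), on A03 from 17929172 to 17929193 (miR157b, minus) and on A07 from 17329459 to 17329479 (miR156g, plus). The miR156 form was listed on A06 from 17870456 to 17870477 (miR156a, plus), on A09 from 31052687 to 31052707 (miR156e, plus), on A04 from 11297094 to 11297114 (miR156l, minus) and on A01 from 3145190 to 3145210 (miR156n, minus). Of the 22 records, 21 had a sequence identical to that of *B. rapa* at the listed position. For 13 records it was identical to the miRBase entry under which the record was listed, whose name can differ from the study's. The star record miR156d* had 1 mismatch to *B. rapa*. Whether a position lies in a gene was not looked up, since no annotation of this version was used here.

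The question of the comparison was whether the levels of these phase-change miRNAs differed between the HT and HS libraries. Of the 22 members, 7 were called higher in HT and 0 lower. Over all 169 counted records the same rule called 8.28% higher and 4.14% lower in HT. With other library sizes 3 or 4 of the 7 stayed called, all of them still higher in HT. All 7 called records belonged to the miR157 form or the miR156 form, and they held only 3 distinct sequences. Counted by sequence, 3 of 18 units of the family were called higher (16.7%), against 5.96% of all 151 distinct sequences (4.64% were lower). Among the called sequences, that of miR156a contains that of miR156e, so their counts may share reads. The 151 sequences include those of the family. No member reached a fold change of 3 with that p, which 2.96% of all records did in each direction.

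**Figure D1:**
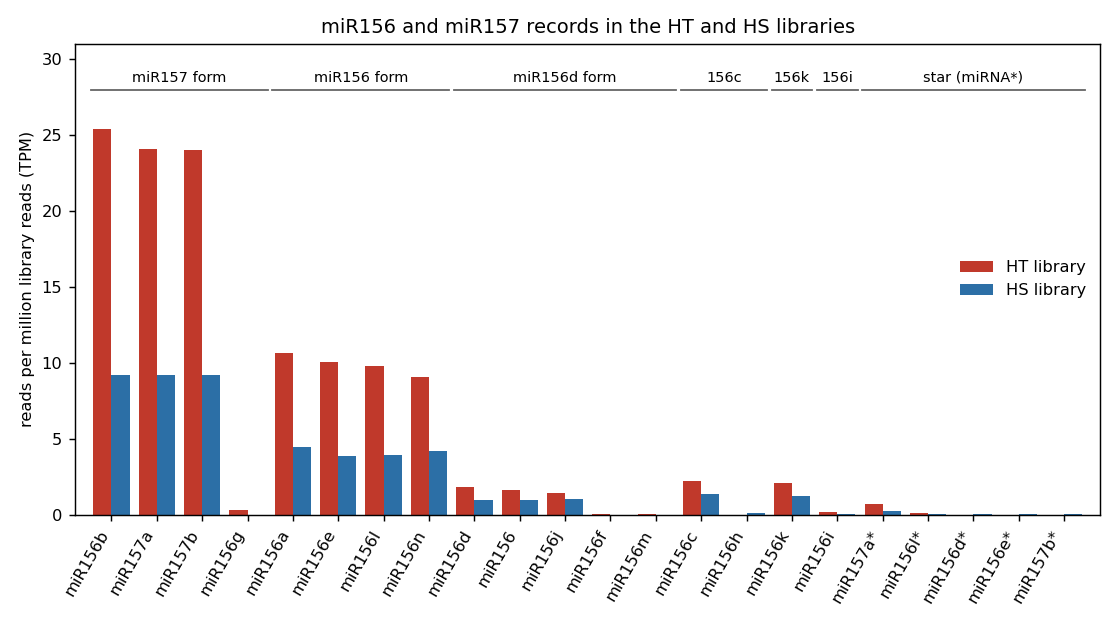
Level of each of the 22 miR156 and miR157 records in the HT library (red, left bar) and the HS library (blue, right bar), in TPM; the lines above the bars join records of 1 sequence form (the miR156c, miR156k and miR156i forms are marked by the end of their names). The 3 tall pairs of the miR157 form stand at 24.0 to 25.4 TPM in HT and 9.18 to 9.22 TPM in HS, and each bar is 1 library, so there are no error bars.

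The miR157 form was the most abundant form of the family in both libraries. miR156b was counted with 687 HT reads (25.4 TPM), against 242 HS reads (9.22 TPM), which is 2.75-fold higher in HT (95% interval 2.37 to 3.20, p = 4.1e-47 by Fisher's exact test). For miR157a, 652 HT reads and 242 HS reads were counted (2.61-fold, 2.25 to 3.04). For miR157b, the counts were 650 HT reads and 241 HS reads (2.62-fold, 2.25 to 3.05). These 3 records are repeated counts of the same sequence at 3 loci and not 3 findings. They ranked between 19 and 21 among the 169 records in either library.

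The other member of this form, miR156g, starts 3 bases further along the same sequence and ends 2 bases later. It was counted with 9 HT reads and 0 HS reads. A count of 0 allows up to 3 reads, or 0.114 TPM in HS, so by this floor miR156g was at least 2.91-fold higher in HT. The exact interval of its fold change, which also covers the error of the 9 reads, began at 1.91. Its p was 0.00394 by Fisher's exact test and it was not called, while its Benjamini-Hochberg adjusted p over all 169 records was 0.0171. With each sequence counted once, the miR157 form held 696 HT reads (25.7 TPM), against 242 HS reads (9.22 TPM), a 2.79-fold difference (2.41 to 3.24, p = 1.3e-48 by Fisher's exact test).

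The miR156 form came second. miR156e was counted with 272 HT reads (10.0 TPM), against 102 HS reads (3.89 TPM), 2.59-fold higher in HT (2.05 to 3.28, p = 6.5e-18 by Fisher's exact test). The 2 records of the same sequence were somewhat lower in HT and somewhat higher in HS. miR156l gave 265 HT reads and 104 HS reads (2.47-fold, 1.96 to 3.13), and miR156n gave 245 HT reads and 110 HS reads (2.16-fold, 1.72 to 2.73). miR156a, which is the same sequence with 1 further base at the 3′ end, was counted with 288 HT reads (10.6 TPM), against 117 HS reads (4.46 TPM), 2.39-fold higher in HT (1.92 to 2.99, p = 9.5e-17 by Fisher's exact test). Because miR156a contains the sequence of miR156e, a read may stand in both counts, and how such reads were shared is not given in the sources used here. All 4 records were called, but the lower bounds for miR156a, miR156l and miR156n lay below the fold change of 2 that the call required. Each sequence counted once, the form held 560 HT reads (20.7 TPM), against 219 HS reads (8.34 TPM), a 2.48-fold difference (2.12 to 2.91, p = 4.8e-33 by Fisher's exact test).

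Both major forms stood higher in the HT library. The reads of the miR157 form divided by those of the miR156 form gave 1.24 in HT and 1.11 in HS, a ratio that does not depend on the library size. The odds ratio between the libraries was 1.12 (0.903 to 1.40, p = 0.299 by Fisher's exact test). The interval included 1, and it leaves room for a ratio up to 1.40 times as high in HT.

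**Figure D2:**
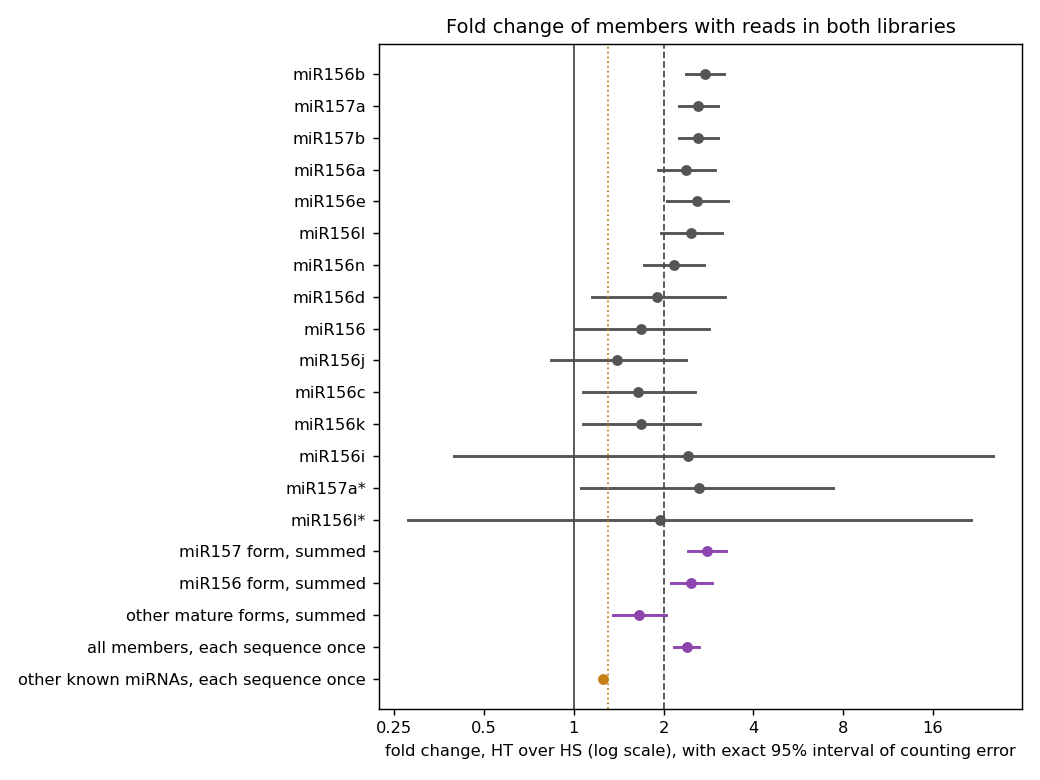
Fold change (HT over HS, log scale) of the 15 members with reads in both libraries, of the summed forms and of all other known miRNAs, as points with the exact 95% interval of counting error. The solid line marks equal levels and the dashed line the 2-fold threshold. The dotted line marks the 1.30-fold ratio of the reads summed over all counted known miRNA records, repeated sequences included. The records of the miR157 form lie above 2 with their whole interval, while those of the minor forms extend below 2.

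The minor forms were counted with fewer reads, and none of their records was called. miR156d was counted with 49 HT reads and 25 HS reads (1.90-fold, 1.15 to 3.21). The record miR156, which carries an additional T at the 5′ end of the miR156d sequence, was counted with 45 HT reads and 26 HS reads (1.68-fold, 1.01 to 2.83). miR156j, which lacks the first base of miR156d, was counted with 39 HT reads and 27 HS reads (1.40-fold, 0.836 to 2.38). These 3 records overlap in sequence. Each had a fold change above 1, and the interval of miR156j included equal levels.

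miR156c gave 61 HT reads and 36 HS reads (1.64-fold, 1.07 to 2.55), and miR156k gave 57 HT reads and 33 HS reads (1.68-fold, 1.07 to 2.66). miR156i was counted with 5 HT reads and 2 HS reads (2.42-fold, 0.397 to 25.5). The last 3 mature records lay at or below the floor of 3 reads in both libraries, so no fold change is given. miR156h was counted with 0 HT reads and 3 HS reads, miR156f with 2 HT reads and 0 HS reads, and miR156m with 2 HT reads and 0 HS reads. Such counts cannot show a difference at this depth.

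The 9 mature sequences outside the 2 major forms summed to 260 HT reads and 152 HS reads (1.66-fold, 1.35 to 2.04). This interval lay below that of the miR157 form (2.41 to 3.24). It also lay below that of the miR156 form as summed (2.12 to 2.91), but overlapped it when the nested sequences miR156a and miR156e were counted once (2.39-fold, 1.92 to 2.99). The nested sequences of the minor forms, such as miR156d, miR156 and miR156j, were still each counted in their sum, so its interval is too narrow. The difference between the groups of forms was seen in the data first and was not tested. The miR157 form made up 45.2% of the family's reads in HT and 38.7% in HS, and the miR156 form 36.4% in HT and 35.0% in HS. The miR156d form made up 8.90% in HT and 12.5% in HS, the miR156c form 3.96% in HT and 6.24% in HS, and the miR156k form 3.70% in HT and 5.28% in HS.

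**Figure D3:**
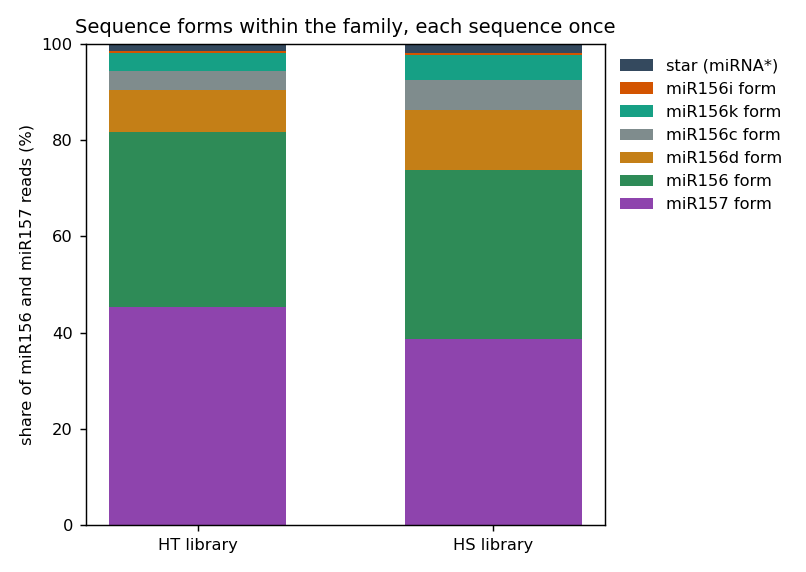
Share of each sequence form in the miR156 and miR157 reads of the HT library (left) and the HS library (right), in percent, with each distinct sequence counted once. The miR157 and miR156 forms fill most of both bars, 45.2% and 36.4% of HT reads and 38.7% and 35.0% of HS reads.

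By length, the 21-nt sequences held 71.7% of the mature reads in HT and 68.5% in HS, the 20-nt sequences 25.2% in HT and 27.2% in HS, and the 22-nt sequences 3.10% in HT and 4.24% in HS. The 21-nt sequences were 2.51-fold higher in HT (2.24 to 2.82), the 20-nt sequences 2.22-fold (1.84 to 2.68) and the 22-nt sequences 1.75-fold (1.06 to 2.95). The 21-nt sequences include that of miR157a, and the 20-nt sequences that of miR156e. Some longer sequences contain shorter ones, as that of miR156a (21 nt) contains that of miR156e (20 nt). A read may therefore stand in several length classes, and the shares and intervals by length do not allow for this.

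Star strands are usually degraded once the mature strand is loaded into the silencing complex, and the star records were rare. miR157a* was counted with 19 HT reads (0.702 TPM), against 7 HS reads (0.267 TPM), 2.63-fold higher in HT (1.06 to 7.41), with a p of 0.0294 by Fisher's exact test that did not reach the threshold. miR156l* was counted with 4 HT reads and 2 HS reads (1.94-fold, 0.278 to 21.4). miR156d*, miR156e* and miR157b* were each counted with 0 HT reads and 1 HS read. The 5 star sequences summed to 23 HT reads and 12 HS reads (1.86-fold, 0.888 to 4.10).

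Because a star record and a mature record of the same name can lie at different loci, the arms were compared only where both had a count and lay within 150 nt on 1 strand. This held for 3 of the 17 mature members. At the miR157a locus on chromosome A02 the star record, listed from 9905958 to 9905980, began 71 nt after the mature record. It made up 2.83% of the reads of both arms in HT (1.71 to 4.39) and 2.81% in HS (1.14 to 5.71), and these intervals overlapped over most of their range. Over 12 such pairs of other known miRNAs with at least 50 reads, the median star share was 40.7% in HT and 24.2% in HS, and 3 of the 12 pairs had a lower share than miR157a in HT. Some of these pairs had a nearly empty mature record, such as miR172g with 1 HT read and 1 HS read. The medians therefore describe these pairs of records and not a usual star share. The mature reads of miR157a may come from any locus of this sequence, so the star share of this hairpin alone may be higher.

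The other pairs were too thinly counted for a comparison. At the miR156k locus on chromosome A10, the star record miR156d* had 0 of 57 reads in HT (interval up to 6.27%) and 1 of 34 in HS. At the miR156g locus on chromosome A07, the star record miR157b* had 0 of 9 reads in HT and 1 of 1 in HS.

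The size of every fold change above depends on the library size used. The counted known miRNA records together gave 38431 HT reads and 28582 HS reads, 1.30-fold more per library read in HT. This total counts repeated sequences at every record. With each sequence counted once it was 31538 HT reads and 23864 HS reads, and scaling to that total was not run. Scaled to the sum over all records instead of to all reads, every log2 fold change fell by 0.38. Then 3 members remained called (miR156b, miR157a and miR157b, all of the miR157 form), against 5.33% of all records called higher and as many called lower. The records miR156a, miR156e, miR156l and miR156n then had fold changes between 1.66 and 1.98 with p of at most 7.3e-06 by Fisher's exact test, so that they missed the fold threshold and still passed the p threshold. Scaled to the median of the record ratios, the shift was −0.32 and 4 members remained called (those 3 and miR156e), against 5.92% of all records higher and 5.33% lower. The 15 members with reads in both libraries kept a fold change above 1 under each of these scalings.

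Set beside the rest of the table, the family was among those with more reads in HT. Of the 22 members, 13 had at least 10 reads in the 2 libraries together. All 13 had a fold change above 1, with a median log2 fold change of 1.26. They are records and not distinct sequences. miR156b, miR157a and miR157b share 1 sequence, and miR156e, miR156l and miR156n share another. The median leans towards these repeated sequences, which had higher fold changes than the minor forms. Over the 94 known records with at least 10 reads and with reads in both libraries, 59.6% had a fold change above 1 and the median was 0.31. These include the 13 members, and without them 53.1% of 81 records had a fold change above 1 and the median was 0.057. The other 9 members, with fewer reads, are described above.

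**Figure D4:**
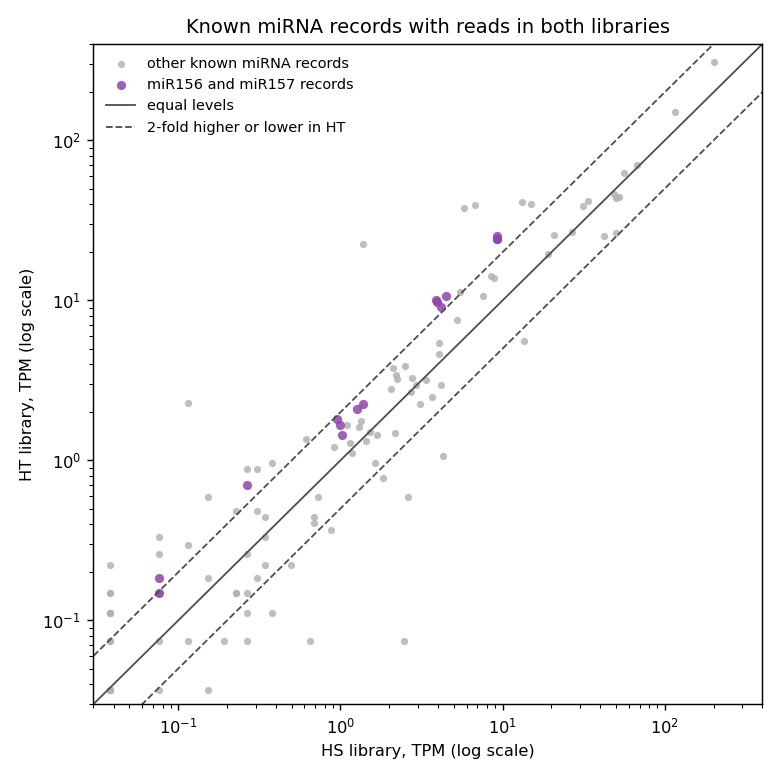
Level of each known miRNA record with reads in both libraries, HT on the vertical and HS on the horizontal axis, in TPM on log scales, with 15 miR156 and miR157 records in purple and 104 others in grey. The solid line marks equal levels and the dashed lines a 2-fold difference; all purple points lie above the solid line, and the 7 called records lie above the upper dashed line.

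With each sequence counted once, the family held 1539 HT reads (56.9 TPM), against 625 HS reads (23.8 TPM), 2.39-fold higher in HT (2.17 to 2.62). The other known miRNAs gave 29999 HT reads and 23239 HS reads, 1.25-fold higher (1.23 to 1.27). Of the reads of the counted known miRNA records, each sequence once, the family took 4.88% in HT (4.64 to 5.12) and 2.62% in HS (2.42 to 2.83). The odds ratio was 1.91 (1.73 to 2.10), which is free of the library size. The study reports a much larger total of known miRNA reads in each library, so these are not shares of all known miRNA reads. Among the 25 families with at least 50 reads the family ranked 6 by reads in HT and 10 in HS. By fold change (HT over HS) it ranked 5 among them, so other families stood higher in HT by a larger factor. The most abundant family, miR319 (which targets TCP transcription factors), gave 8646 HT reads and 5674 HS reads, a 1.48-fold difference.

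The reads of miR172 rested on 1 sequence. miR172d was counted with 605 HT reads (22.3 TPM), against 36 HS reads (1.37 TPM), 16.3-fold higher in HT (11.6 to 23.5), and 1 of the 10 miR172 records was called, that of miR172d (10.0%, against 8.28% of all records called higher). The other 9 sequences summed to 47 HT reads and 51 HS reads (0.894-fold, 0.588 to 1.36). Most of these reads, 36 in HT and 38 in HS, were those of the star record miR172b*. The mature sequences other than miR172d were therefore too thinly counted to show whether they differed. The sum of all 10 was 652 HT reads and 87 HS reads (7.27-fold, 5.80 to 9.20) and rests mainly on miR172d. The split was made after seeing the data.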

How the data were processed

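The authors sequenced small RNA of 18 to 30 nt from shoot apexes in 1 library per genotype, removed adaptors, low-quality reads and reads of other non-coding RNAs, and matched the rest to plant miRNAs of miRBase (release 18 in the table header, other releases elsewhere). Plant ages also differ between the sources. The deposited table of known miRNAs gives raw counts and the authors' TPM, and cells with quoted line breaks led to the unit other in the record of units. All counts were whole numbers of at least 0. TPM served only to derive the library sizes. Fold changes, p-values and q-values of the authors were not used, nor were the tables of new candidates. Records of identical sequence were counted once in sums, with the record of most reads, except in the total of all known records. Which reads the authors shared between records is not given in the sources used here. Fisher's exact tests and Clopper-Pearson or conditional exact intervals were computed with scipy 1.17.1 in Python 3.11.15. The arms of a hairpin were paired at 20 to 150 nt on 1 strand. Alternatives changed the library size, the thresholds, the minimum of reads and the counting of repeated sequences. The call rule was tested on simulated counts with counting error only and with changes larger than those of the called members. The changed records were drawn only from those with at least 50 reads in both libraries together. The rule called 40 of 40 changed records rightly and 0 of 115 unchanged records. Changes in records with fewer reads were not simulated. Errors of library size and variation between libraries were not simulated, so this test does not bear on them. Every counted member is named, and outside the family miR172 and the most abundant family. Members and lists were chosen with earlier results of these data known.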

Additional observations from a re-analysis of the deposited data

How the results depend on the processing

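The count of members called higher in HT was 7. It was 3 with the sum of the known miRNA counts as library size, 4 with the median of ratios and 4 with the trimmed mean of log2 ratios. It was 3 with identical sequences as 1 unit and 0 with a fold change over 3, and no member was called lower under any of these. The summed fold change of the family, 2.39, was 1.83 with the sum of the known miRNA counts, 1.92 with the median of ratios and 1.92 with the trimmed mean. The fold change of the miR156 form, 2.48, was 1.90, 1.99 and 1.99 under the same library sizes and so missed the fold threshold, while that of the miR157 form stayed between 2.14 and 2.79 under all of its alternatives. Counting nested sequences once gave an odds ratio of 1.17 between the forms (0.892 to 1.53), an alternative chosen after seeing the data. Identical sequences at several loci differed in fold change by a factor of 1.05 for the miR157 form and 1.20 for the miR156e sequence, against a median of 1.08 over 7 sequences of other families. Reads that fit several records may stand in more than 1 count, so summed reads are not independent molecules. Without a replicate, variation between plants or libraries is not measured. No paired analysis was possible because each genotype has 1 library.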

Other observations

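Besides the 22 counted members, the table listed 25 records of miR156 or miR157 with no count, of which 15 were star and 10 mature records. For 6 of them the same sequence had a count at another record, so that an empty cell is not a count of 0. Among the others was the record of *Arabidopsis* miR157d, 1 base shorter at the 5′ end than miR157a at the same locus on chromosome A02, from 9905888 to 9905908. Star records without a count lay within 150 nt of miR156a, miR156h, miR156l and miR157b, so that 7 of the 17 mature members had a listed opposite arm, counted or not.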
